A study of Homo sapiens with 36 samples.

Results

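The transcripts described here are 10 inflammatory cytokine and chemokine genes, taken by symbol from 3 tables of RNA-seq read counts that hold 54583 genes each. They are the chemokines CXCL8, CXCL1, CXCL2 and CXCL3, the interleukin-6 family cytokines IL6, IL11 and LIF, the interleukin-1 genes IL1A and IL1B, and GDF15. The cells were MDA-MB-231, an established human triple-negative breast cancer line, grown in RPMI-1640 medium with fetal bovine serum, and polyA RNA was sequenced. They were given SHP1705, a stabilizer of cryptochrome (CRY), the repressor protein of the circadian clock, with or without an inhibitor of the proteasome, the complex that degrades ubiquitin-tagged proteins. The 36 libraries form 3 sets of 12. The MG132 set was treated for 8 h, and the carfilzomib sets for 8 h and for 24 h. Within a set, 3 libraries each came from cells given DMSO (the solvent of every drug stock), 10 µM SHP1705, the proteasome inhibitor of that set, or the combination of SHP1705 with that inhibitor. MG132, a peptide aldehyde that binds reversibly, was used at 100 nM, and carfilzomib, an epoxyketone that binds irreversibly, at 10 nM. The submitters mention 3 independent experiments but do not tie them to the replicate numbers. The p-values here therefore reflect only how far libraries of a group differ, and that difference may be technical.

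CXCL1, CXCL2, CXCL3 and CXCL8 (interleukin-8) are secreted chemokines that recruit neutrophils through the receptors CXCR1 and CXCR2. IL6, IL11 and LIF signal through receptor complexes that share the subunit gp130, encoded by IL6ST, and activate the transcription factor STAT3. IL-1 alpha and IL-1 beta bind the same receptor, IL1R1, whose signal induces many of the other genes here, and GDF15 is a cytokine made under cell stress that acts on the receptor GFRAL in the hindbrain. Many of these genes are induced by the transcription factor NF-kB, whose inhibitor IkB-alpha is degraded by the proteasome, and many of their mRNAs are short-lived. MDA-MB-231 cells are known to secrete several of them without added stimulus.

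RefSeq (build GRCh38.p14) places CXCL8 on chromosome 4 at 73740569 to 73743716, with CXCL1 at 73869393 to 73871308, CXCL3 at 74036589 to 74038689 and CXCL2 at 74097040 to 74099195 on the same chromosome. IL1A (112773925 to 112784493) and IL1B (112829751 to 112836779) are neighbours on chromosome 2. IL6 lies on chromosome 7 (22727200 to 22731998), LIF on chromosome 22 (30240453 to 30246759), and GDF15 (18386158 to 18389176) and IL11 (55364382 to 55370463) on chromosome 19. The 150 bases before the start of the 5 genes whose promoters hold an NF-kB motif are shown here because all 5 rose together in 1 of the treatments below. All are written 5′ to 3′ on the gene's strand, and capitals mark matches to GGNNTTTCC.

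CXCL8: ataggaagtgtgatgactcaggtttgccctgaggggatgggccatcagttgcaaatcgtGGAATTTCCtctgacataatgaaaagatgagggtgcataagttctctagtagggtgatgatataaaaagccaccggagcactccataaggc

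CXCL1: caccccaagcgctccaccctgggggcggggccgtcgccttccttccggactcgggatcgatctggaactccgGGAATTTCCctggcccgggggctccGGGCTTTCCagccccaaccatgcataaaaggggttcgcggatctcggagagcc

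CXCL2: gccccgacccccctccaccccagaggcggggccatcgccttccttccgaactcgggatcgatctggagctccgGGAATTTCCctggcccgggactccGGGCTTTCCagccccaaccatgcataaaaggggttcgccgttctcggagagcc

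CXCL3: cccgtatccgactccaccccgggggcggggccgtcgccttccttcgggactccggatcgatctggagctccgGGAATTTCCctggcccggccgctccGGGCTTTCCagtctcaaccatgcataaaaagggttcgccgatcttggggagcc

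IL6: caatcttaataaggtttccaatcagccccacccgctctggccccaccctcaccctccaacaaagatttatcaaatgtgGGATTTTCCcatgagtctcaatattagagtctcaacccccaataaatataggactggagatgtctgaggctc

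These windows are chr4:73740419-73740568 (plus strand) for CXCL8, chr4:73869243-73869392 (plus) for CXCL1, chr4:74099196-74099345 (minus) for CXCL2, chr4:74038690-74038839 (minus) for CXCL3 and chr7:22727050-22727199 (plus) for IL6. CXCL8 and the 3 other chemokines hold the stricter NF-kB motif GGAATTTCC, 91 bases before the start in CXCL8, 78 in CXCL1 and CXCL3 and 77 in CXCL2. In CXCL1, CXCL2 and CXCL3 a second match, GGGCTTTCC, lies 53 bases before the start, and the match in IL6 is GGATTTTCC at 72 bases. Both strands of 300-base RefSeq windows, 250 before to 50 after the start, were searched. The table held a window for 9 of the 10 genes, all but LIF. GGAATTTCC, every match of which is also one of GGNNTTTCC, was found in 4 of the 9 windows and in 0.461% of 35116 promoters. GGNNTTTCC was found in 5 of the 9 and in 6.26% of promoters. The windows of CXCL1, CXCL2 and CXCL3 are alike around both matches, so their matches are not independent. The share of promoters counts every window of a gene, while for the 9 genes only the window at the annotated start was kept.

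IL1A and GDF15, which rose in the same treatment, and IL11, which fell, have no match to either NF-kB motif. IL11 is the most abundant of the 10, and its 150 bases before the start (chr19:55370464-55370613, minus strand) are shown with the AP-1 motif TGANTCA in capitals.

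IL11: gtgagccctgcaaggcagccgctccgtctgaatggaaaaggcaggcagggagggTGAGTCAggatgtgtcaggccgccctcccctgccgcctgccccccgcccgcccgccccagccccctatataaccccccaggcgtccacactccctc

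The AP-1 match in IL11 begins 96 bases before the start, CXCL8 has one at 137 bases, and IL1A has one 12 bases before and another 39 bases after the start. Of all promoters 7.71% hold one. The heat shock element GAANNTTC was found in IL1B alone of the 9 (6.77% of promoters), and the composite TGATGNAA (3.62%) and the CRE TGACGTCA (1.85%) in none. A match is a stretch of letters, and no binding was measured.

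**Figure D1:**
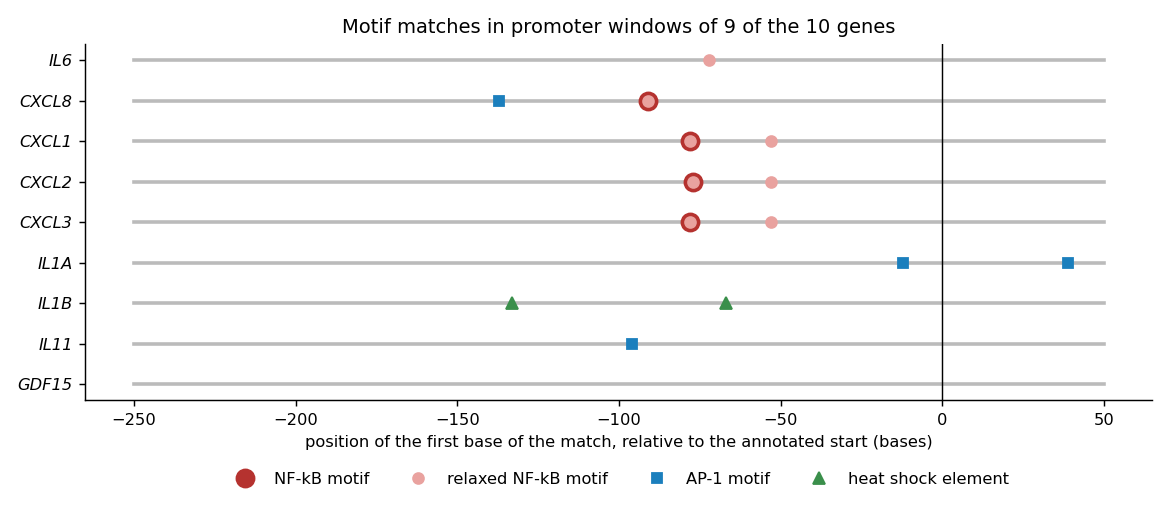
Positions of motif matches in the RefSeq promoter windows of 9 of the 10 genes, as the distance in bases of the first base of a match from the annotated start. The stricter NF-kB motif sits between 77 and 91 bases before the start in the 4 chemokine genes, and IL6 has a match to the relaxed motif at 72 bases.

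Libraries held 34191153 to 39251609 counts in the MG132 set. With carfilzomib they held 17781035 to 27670810 counts after 8 h and 18864725 to 34008423 after 24 h. The line's mesenchymal marker VIM stood at 1296 ± 22.0 CPM (counts-per-million on edgeR's TMM-adjusted library size; SD, n = 3) in the MG132 set's DMSO libraries, and the estrogen and progesterone receptor genes ESR1 and PGR at 0.0715 and 0.0361 CPM. These belong to a list of 8 line markers that also holds CD44, AXL, CAV1, KRT18 and ERBB2. Of the 8, 6 passed edgeR's filter on low counts in that set. The low levels of ESR1 and PGR therefore do not speak for the rest of the list, ERBB2 included. In the carfilzomib set at 8 h the libraries went against their labels. HSPA1A, a heat shock gene, stood at 12020 to 23610 CPM in DMSO 1, 2 and 3, SHP1705 1 and combination 2 and 3, and at 693 to 896 CPM in the other libraries of that set, all 3 labelled carfilzomib among them. PER3, a clock gene, was at or under 5.07 CPM in the SHP1705 and combination libraries of the other sets and at or above 13.8 CPM in the rest. At 8 h with carfilzomib it was low (1.26 to 2.25 CPM) in DMSO 2 and 3, SHP1705 1, carfilzomib 2 and 3 and combination 1, and at 6.78 to 9.62 CPM in the others. That set is therefore described last, library by library. In the MG132 set, POSTN (periostin, a matrix protein of stromal cells) was at or under 0.255 CPM in DMSO, 0.267 to 29.4 in SHP1705, 0.161 to 173 in MG132 and 98.3 to 242 in the combination. Of the 9 tested genes of a 12-gene stromal list, 4 rose in the combination (POSTN, CDH2, PDGFRA and COL1A1). The list's summed level was 128 to 285 CPM there against 20.3 to 21.2 in DMSO, 19.8 to 57.1 in SHP1705 and 20.0 to 207 in MG132. Without POSTN the sum was 29.7 to 42.8 CPM in the combination against 20.2 to 21.0 in DMSO, 19.5 to 27.7 in SHP1705 and 19.8 to 34.3 in MG132, so the 3 combination libraries stayed above DMSO and overlapped MG132. Others of the same list, DCN, THY1 and FAP, stayed at or under 0.211 CPM in every library of that set, so the list was split. What part the stromal transcripts have in the results of that set was not tested. No contrast of the combination can be made without POSTN-rich libraries. In bulk RNA a change of level per cell and a change in which cells are present cannot be told apart.

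Among the 10 genes the level per length, in CPM per kilobase of exon (GENCODE 29), was highest for IL11 in the DMSO libraries of the MG132 set, at 21.3 (20.7 to 21.7), then for LIF at 7.42 (6.97 to 7.77) and CXCL8 at 2.90 (2.54 to 3.27). IL6 at 1.04 (0.894 to 1.26) and GDF15 at 0.981 (0.720 to 1.26) overlapped. CXCL1 (0.423), CXCL2 (0.278), CXCL3 (0.152), IL1A (0.0967) and IL1B (0.0792) followed, and the ranges of each of CXCL1 and CXCL2, CXCL3 and IL1A, and IL1A and IL1B overlapped. The last 4 were thus measured on few reads, 5 to 21 counts per DMSO library. At 24 h with DMSO the order again began with IL11 (25.5) and LIF (11), and GDF15 (3.90) stood above CXCL8 (1.82) and IL6 (1.65), which overlapped. Within the transcripts of GENCODE 29, 7.07% of the 75-base words of CXCL2 and 4.57% of those of CXCL3 also occur in another gene of this trio, and 0.245% of those of CXCL1. How such reads were assigned is not given in the sources used here. The division of reads among the trio is uncertain to that extent.

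Tests were edgeR's quasi-likelihood F-test on the counts of all 12 libraries of a set. A gene is said to have risen or fallen, or to be called, where its p-value, adjusted over all genes tested, is under 0.05. Errors after a log2 fold change are SE and those after a CPM value are SD over the 3 libraries of a group.

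The combination of SHP1705 and MG132 for 8 h raised all 4 chemokines, IL6, IL1A and GDF15 and lowered IL11 and LIF. Of the 9 genes tested (IL1B did not pass edgeR's filter on low counts) 7 rose and 2 fell at an adjusted p under 0.05, and the groups did not overlap for any of the 9. The background was large, since 58.8% of all 16591 genes tested passed the same threshold, 29.2% higher and 29.7% lower, and 63.5% of genes did not overlap. The median log2 fold change was 1.85 over the 9 and -0.01 over all genes.

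CXCL8 stood at 7.44, 5.77 and 6.58 CPM in the 3 DMSO libraries and at 22.2, 25.8 and 23.5 CPM in the combination, in replicate order. The lowest combination library was thus nearly 3 times the highest DMSO library. Its mean went from 6.60 ± 0.833 to 23.8 ± 1.79 CPM (SD, n = 3), a log2 fold change of 1.85 ± 0.11 (SE, adjusted p = 1.20e-11), or 3.6-fold. CXCL1, whose product binds CXCR2, stood at 0.458, 0.580 and 0.608 CPM in DMSO and at 2.12, 2.58 and 2.53 in the combination (log2 fold change 2.13 ± 0.30, adjusted p = 5.16e-06). CXCL2, a close paralog, went from 0.535, 0.304 and 0.415 CPM to 1.85, 1.49 and 2.14 (2.11 ± 0.30, adjusted p = 4.05e-06). The third of the trio, CXCL3, was at 0.127, 0.442 and 0.442 CPM in DMSO and at 1.40, 1.58 and 1.26 in the combination (2.07 ± 0.42, adjusted p = 0.000280). All 3 were more than 4-fold higher on the fitted scale, at 4.38, 4.32 and 4.20.

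IL6, the family's founding member and an inducer of the acute phase response, had 2.60, 1.85 and 2.02 CPM in DMSO and 5.47, 5.10 and 4.96 in the combination. This was a log2 fold change of 1.26 ± 0.16 (adjusted p = 1.56e-06), or 2.39-fold. IL11, which shares gp130 with IL6 and is the most abundant of the 10, moved the other way, from 57.5, 57.9 and 55.3 CPM to 35.4, 33.4 and 32.7 (-0.75 ± 0.05, adjusted p = 3.55e-10). LIF, known for keeping mouse embryonic stem cells undifferentiated, fell less, from 30.8, 29.9 and 27.7 CPM to 26.1, 23.0 and 24.2 (-0.27 ± 0.06, adjusted p = 0.000551). The 3 cytokines of the gp130 group therefore went in both directions within the same libraries.

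IL1A, which encodes an alarmin active without cleavage, had 0.229, 0.193 and 0.194 CPM in DMSO and 0.718, 1.07 and 1.08 in the combination (2.20 ± 0.46, adjusted p = 0.000362). These were 7 to 9 counts against 21 to 36. IL1B, whose product needs caspase cleavage, had 5 to 16 counts in DMSO and 3 to 7 in the combination and was not tested. GDF15 rose from 1.5, 2.02 and 2.63 CPM to 5.61, 5.78 and 4.90 (1.41 ± 0.19, adjusted p = 2.21e-06). Its lowest combination library was above its highest DMSO library by more than the range of either group.

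**Figure D2:**
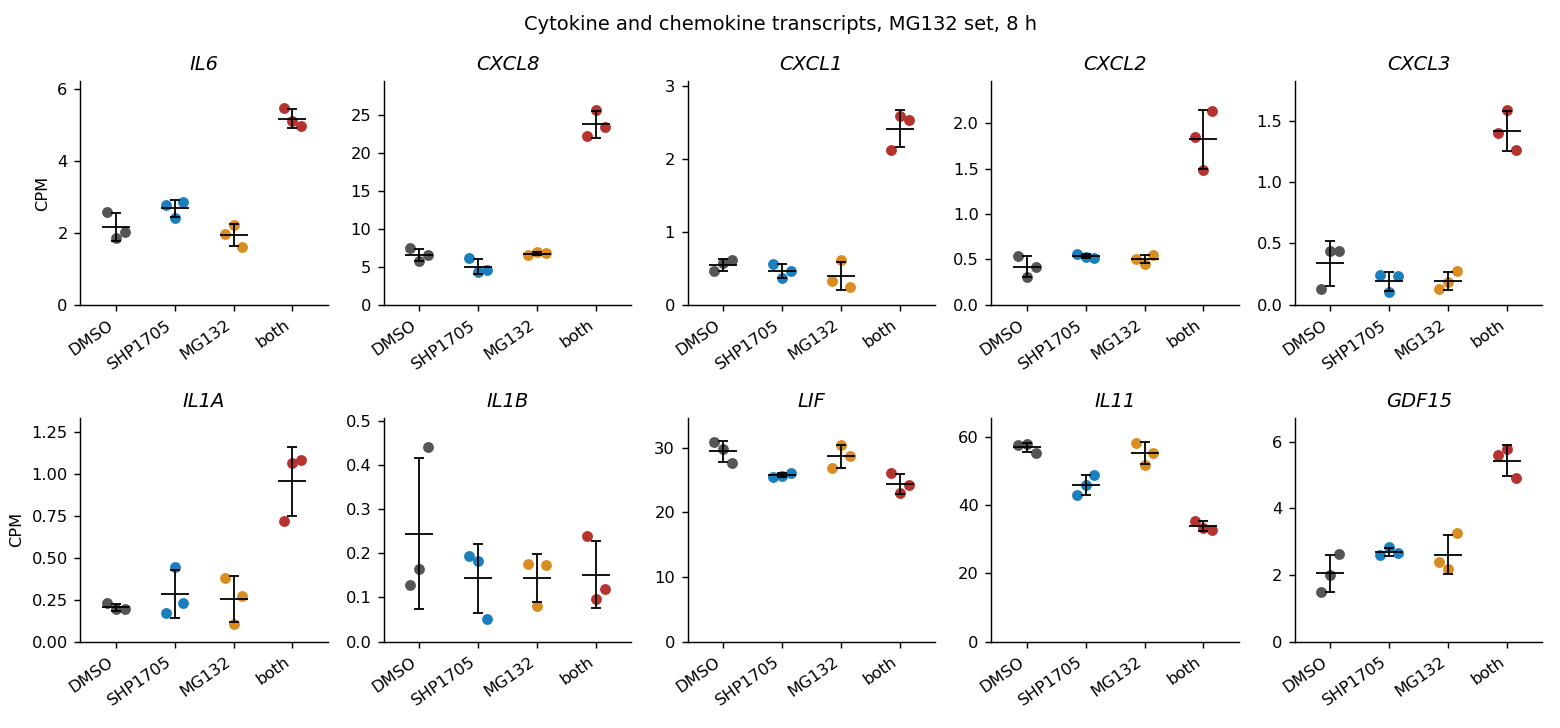
CPM of the 10 transcripts in the MG132 set at 8 h by treatment, 1 panel a gene with its own axis from 0; points are the 3 libraries of a group, bars the mean and SD. In the combination CXCL8 lay at 22.2 to 25.8 CPM against 4.38 to 7.44 in the other groups, while IL11 lay at 32.7 to 35.4 CPM against 42.9 to 58.2.

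With either drug alone, none of the 9 genes tested passed as higher at 8 h in this set. With SHP1705 alone, IL11 fell to 42.9, 45.9 and 48.9 CPM (log2 fold change -0.31 ± 0.05, adjusted p = 0.00131), and all 3 libraries lay below DMSO. LIF was at 25.5, 25.7 and 26.1 CPM, also below DMSO, with -0.20 ± 0.06 and an adjusted p of 0.0438. That call was lost in each of 3 other fits (adjusted p = 0.0516 with relative log expression factors, 0.0573 with DESeq2 and 0.0620 with a replicate block), and 5 of the 6 single-library omissions ended it. CXCL8 had 6.16, 4.38 and 4.61 CPM, a log2 fold change of -0.38 ± 0.12 that did not pass (adjusted p = 0.0594) and that passed with DESeq2 (adjusted p = 0.0436). The count of 2 genes among 9 stands beside 7.53% of all genes called, and 25.9% of all genes did not overlap between SHP1705 and DMSO.

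With MG132 at 100 nM alone, CXCL8 was at 6.54, 6.91 and 6.80 CPM and IL6 at 1.96, 2.22 and 1.61, both overlapping DMSO. None of the 9 was called by edgeR (background 0% of 16591 genes), and 0 had an unadjusted p under 0.05. Over all genes edgeR called 0, with 1574 at an unadjusted p under 0.05, and DESeq2 called 95 of the 1846 genes to which it gave an adjusted p, a subset that holds none of the 9. The 95% interval of the log2 fold change was -0.21 to 0.27 for CXCL8, -0.53 to 0.20 for IL6 and -0.15 to 0.06 for IL11. MG132 replicate 3, whose POSTN level of 173 CPM lay within the combination's range, had 6.80 CPM of CXCL8 and 1.61 of IL6, the latter below every DMSO library. There GDF15 (3.28 CPM), IL1A (0.273) and CXCL2 (0.546) lay above every DMSO library and CXCL1 (0.248) below. CXCL8, CXCL3, LIF and IL11 lay within the DMSO range. What part POSTN-rich material has in these levels was not tested.

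Against MG132 alone, the combination was higher in the same 7 genes and lower in the same 2 (background 57.2%). CXCL3 differed by 2.83 ± 0.45 on the log2 scale, CXCL1 by 2.60 ± 0.32, IL1A by 1.90 ± 0.44, CXCL2 by 1.85 ± 0.29, CXCL8 by 1.82 ± 0.11, IL6 by 1.42 ± 0.17 and GDF15 by 1.05 ± 0.18. IL11 differed by -0.71 ± 0.05 and LIF by -0.23 ± 0.06. This comparison and that with DMSO share the combination libraries.

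An interaction term asked whether the combination differs from the sum of the 2 single-drug log2 changes. It was positive for CXCL3 (3.6 ± 0.67, adjusted p = 0.000162), CXCL1 (2.84 ± 0.47, adjusted p = 4.16e-05), CXCL8 (2.20 ± 0.16, adjusted p = 8.43e-10), CXCL2 (1.51 ± 0.43, adjusted p = 0.00683) and IL6 (1.11 ± 0.24, adjusted p = 0.000603). It was negative for IL11 (-0.40 ± 0.08, adjusted p = 0.000194). Thus 6 of 9 passed, against 48.9% of all genes. IL1A (1.45 ± 0.68, adjusted p = 0.0860) and GDF15 (0.65 ± 0.27, adjusted p = 0.0515) did not pass, nor did LIF (-0.04 ± 0.08), for which the 95% interval was -0.21 to 0.14. Leaving out the 4 libraries with over 100 POSTN counts outside the combination (SHP1705 2 and 3, MG132 1 and 3) removes no library from the combination or DMSO, so it does not bear on that contrast, whose 3 combination libraries are all POSTN-rich and stay in. For the contrasts that use those 4, the IL11 call with SHP1705 alone then held (-0.41, adjusted p = 0.0107), and that of LIF did not (-0.21, adjusted p = 0.314). In the interaction, which then rests on 1 SHP1705 and 1 MG132 library, IL6 (0.84, adjusted p = 0.0536), CXCL2 (1.58, adjusted p = 0.0787) and IL11 (-0.22, adjusted p = 0.0852) no longer passed, and IL1A did (3.38, adjusted p = 0.0168).

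The receptors of these ligands were split. Of 15 receptor and antagonist genes 9 were tested, and in the MG132 combination 4 rose and 3 fell (median log2 fold change -0.20, against -0.01 over all genes, of which 58.8% were called). IL6ST, the shared gp130 subunit, went from 455 ± 7.68 to 721 ± 9.58 CPM (0.67 ± 0.03). The interleukin-6 receptor IL6R (0.83 ± 0.25), the oncostatin M receptor OSMR (0.39 ± 0.04) and the interleukin-1 receptor IL1R1 (0.46 ± 0.06) rose too. The interleukin-1 receptor accessory chain IL1RAP (-0.56 ± 0.06), the LIF receptor LIFR (-0.20 ± 0.04) and SIGIRR (-0.94 ± 0.16), a decoy-like member of the interleukin-1 receptor family, fell. IL11RA (-0.21 ± 0.28) and the antagonist IL1RN (-0.64 ± 0.36) gave no call. CXCR1, CXCR2, ACKR1, IL1R2, GFRAL and RET were too low to test, and CXCR1 and CXCR2 had means of 0.0630 CPM each in DMSO, under the 0.0764 to 0.0877 CPM that 3 counts would give.

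Genes of the NF-kB pathway rose more often than they fell in this combination. Of 21 tested, 16 rose and 2 fell, with a median of 0.50, where 29.2% of all genes rose and 29.7% fell. This list and the others were chosen with earlier results of these data known, so their shares are a description. BIRC3, an inhibitor of apoptosis and NF-kB target, went from 38.8 ± 1.16 to 169 ± 4.51 CPM (2.12 ± 0.05), and BIRC2 (1.19 ± 0.03), TRAF1 (1.80 ± 0.06) and the NF-kB subunit NFKB2 (1.16 ± 0.05) rose as well. Of 15 AP-1, C/EBP and ATF factors, 9 rose and 3 fell (median 0.77), with ATF4, the factor of the integrated stress response, at 1.53 ± 0.04, ATF3 at 2.56 ± 0.09, MAFF at 1.25 ± 0.04 and CEBPG at 1.30 ± 0.05. HSPA1A stood at 38930 to 40610 CPM in the 3 combination libraries and at 533 to 926 CPM in the other 9, and all 4 heat shock readouts rose. HSPA1A and HSPA1B are near-identical copies, so the split of reads between them is uncertain. What part NF-kB, these factors or the heat shock response have in the cytokine changes was not tested.

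Other readouts near the 10 genes went in both directions, and the shares called in the 4 lists given next should be read against the 58.8% of all genes called. Among 11 factors of cytokine mRNA decay, 6 rose and 1 fell (median 0.19). ZC3H12A (regnase-1, which cleaves IL6 mRNA) went from 2.74 ± 0.372 to 8.87 ± 0.666 CPM (1.69 ± 0.13), ZC3H12C by 0.91 ± 0.06 and ZFP36L1 by 0.83 ± 0.04, while ZFP36L2 fell (-1.06 ± 0.05). Of 10 STAT3 pathway genes, 2 rose (JAK1 0.36 ± 0.04 and BCL6 0.52 ± 0.10) and 4 fell (median -0.10). SOCS3, a STAT3-induced feedback inhibitor, fell from 36.4 ± 2.39 to 18.4 ± 1.46 CPM (-0.98 ± 0.06), and SOCS1 fell by 2.04 on the log2 scale. Of 8 genes of interleukin-1 processing and release, 3 rose and 4 fell (median -0.34), among them CASP4 (1.74 ± 0.07), NLRP1 (0.42 ± 0.07), PYCARD (-0.79 ± 0.14) and GSDME (-0.36 ± 0.05). Of 18 further cytokines and chemokines tested, 8 rose and 4 fell (median 0.35). CCL26, an eosinophil chemokine, rose from 0.222 ± 0.0745 to 2.49 ± 0.270 CPM (3.46 ± 0.37), and IL15 (0.98 ± 0.12), TGFB2 (1.00 ± 0.04) and IL32 (0.62 ± 0.06) rose too.

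After 24 h with carfilzomib at 10 nM, alone or with SHP1705, the calls were for 3 of the 10 genes. IL6 rose with carfilzomib and rose further in the combination, IL11 rose with both, GDF15 rose with SHP1705 and fell with carfilzomib, and the chemokines gave no call in any of the 5 contrasts. All 10 genes were tested in this set. The doses, drugs and times differ from those of the MG132 set, so the values are set side by side and not compared.

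IL6 was at 2.83, 4.29 and 3.10 CPM in DMSO, 4.49, 4.06 and 4.96 in SHP1705, 5.95, 7.23 and 5.34 in carfilzomib and 13.4, 9.49 and 9.77 in the combination. Every combination library lay above every carfilzomib library, and every carfilzomib library above DMSO. Over all genes, 25% did not overlap between combination and carfilzomib, and 34.3% between carfilzomib and DMSO. The log2 fold change was 0.86 ± 0.19 with carfilzomib (adjusted p = 0.00175) and 1.67 ± 0.18 with the combination (adjusted p = 2.33e-07), or 3.17-fold. Combination against carfilzomib gave 0.81 ± 0.17 (adjusted p = 0.00310), SHP1705 alone gave 0.40 ± 0.19 (adjusted p = 0.305), and the interaction of 0.41 ± 0.25 did not pass (adjusted p = 0.496).

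IL11 was at 70.9, 68.9 and 64.5 CPM in DMSO, 60.7, 60.3 and 63.1 in SHP1705, 87.9, 75.4 and 80.0 in carfilzomib and 82.2, 83.4 and 78.6 in the combination. It rose by 0.25 ± 0.06 with carfilzomib (adjusted p = 0.00443) and by 0.26 ± 0.06 with the combination (adjusted p = 0.00255). With SHP1705 it lay below DMSO in all 3 libraries, but 24% of all genes did not overlap between those groups. The difference of -0.15 ± 0.06 did not pass (adjusted p = 0.198). LIF stayed at 37.4 to 48.1 CPM in all 12 libraries with no call, and its 95% interval for the combination was -0.11 to 0.20.

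GDF15 was at 8.16, 8.66 and 7.59 CPM in DMSO and at 14.6, 17.4 and 15.5 in SHP1705, a log2 fold change of 0.96 ± 0.12 (adjusted p = 2.48e-05), or 1.94-fold. It was the only one of the 10 called with SHP1705 at 24 h, where 4.46% of all genes were called. With carfilzomib it fell to 4.71, 6.20 and 6.51 CPM (-0.48 ± 0.13, adjusted p = 0.0111), and without DMSO replicate 2 or carfilzomib replicate 1 this did not pass (-0.43, adjusted p = 0.0563, and -0.36, adjusted p = 0.0588). In the combination it was at 7.43, 8.07 and 7.96 CPM, overlapping DMSO (-0.06 ± 0.13). Against carfilzomib alone this was 0.42 ± 0.13 (adjusted p = 0.0463), a call that any of 4 single-library omissions ended, among them that of carfilzomib replicate 1 (0.30, adjusted p = 0.165). The interaction was -0.54 ± 0.18 (adjusted p = 0.164).

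CXCL8 was at 3.56, 4.33 and 4.54 CPM in DMSO and 4.68, 3.20 and 4.50 in the combination, a log2 fold change of 0.00 with a 95% interval of -0.42 to 0.42. CXCL1, CXCL2 and CXCL3 lay between 0.315 and 2.17 CPM in all 12 libraries. Their combination changes were 0.40 ± 0.50, 0.43 ± 0.36 and 0.19 ± 0.47, with 95% intervals that end at 1.44, 1.16 and 1.17. IL1A, at 6 to 20 counts a library in this set, differed by 0.77 ± 0.52 (95% interval -0.30 to 1.84). IL1B, at 0 to 13 counts, differed by 0.45 ± 0.83, with an interval of -1.27 to 2.16. No call among these 5 low genes is thus no sign that they were level.

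In counts, carfilzomib called 3 of the 10 (2 higher, 1 lower) against 21.5% of all 16183 genes, and the combination called 2, both higher, against 27.3%. Combination against carfilzomib called 2, both higher, against 9.02%, and the interaction called 0 against 0.482%, with GDF15 the one of the 10 at an unadjusted p under 0.05. DESeq2 called 360 of the 6281 genes to which it gave an adjusted p there, among which 2 of the 10, LIF and IL11, were not called. The median log2 fold change of the 10 in the combination was 0.33, against 0.00 over all genes.

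**Figure D3:**
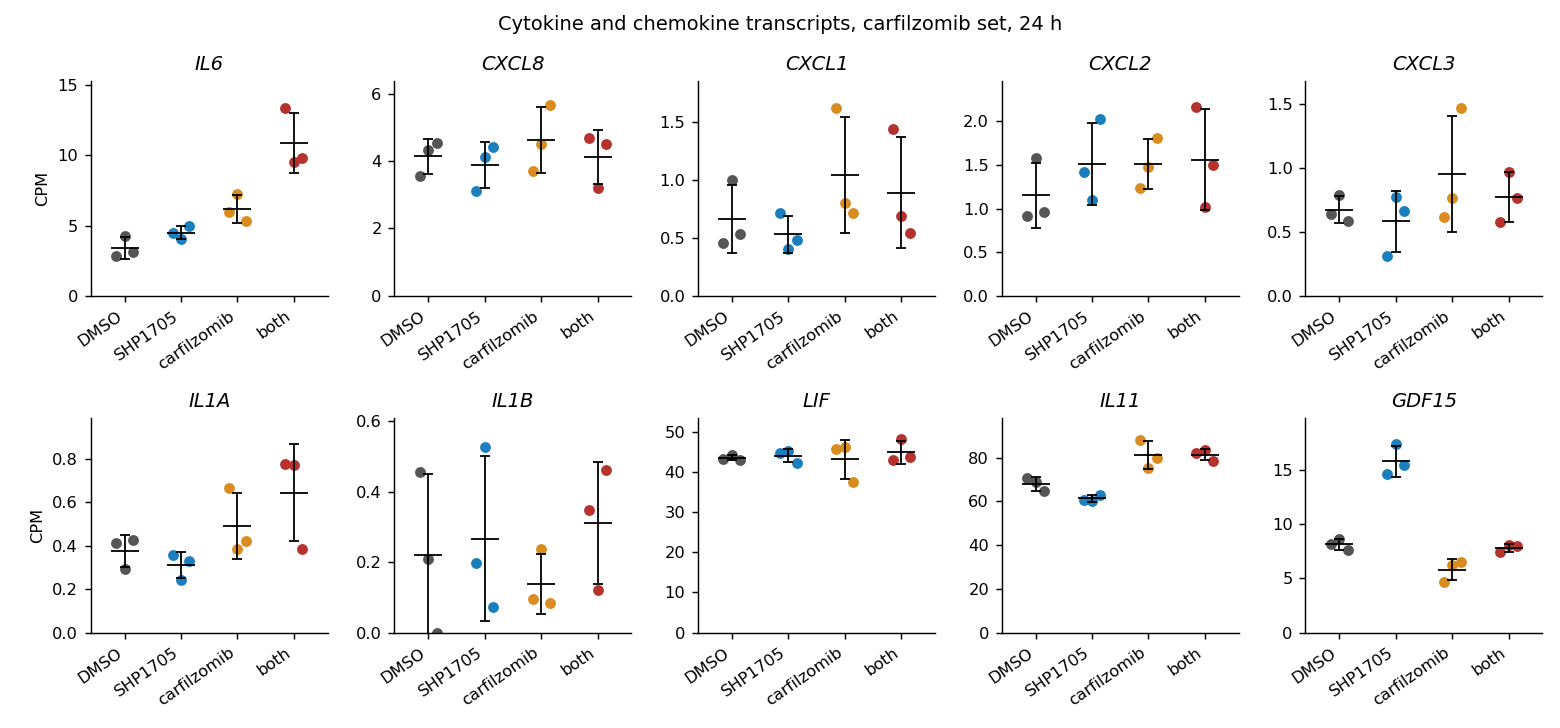
CPM of the 10 transcripts in the carfilzomib set at 24 h by treatment, 1 panel a gene with its own axis from 0; points are the 3 libraries of a group, bars the mean and SD, cut at 0 for IL1B. IL6 lay at 9.49 to 13.4 CPM in the combination against 2.83 to 4.29 in DMSO, and GDF15 at 14.6 to 17.4 CPM in SHP1705 against 7.59 to 8.66 in DMSO.

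Among pathway genes in the 24 h combination, those of NF-kB rose more often than they fell. Over all genes 13% rose and 14.3% fell in that contrast, 27.3% in all. Of 21 NF-kB pathway genes, 9 rose and 1 fell (median 0.17, against 0.00 over all genes), with BIRC3 at 0.57 ± 0.08, NFKBIA (IkB-alpha) at 0.55 ± 0.08, BCL3 at 0.50 ± 0.08 and TNIP1 at 0.35 ± 0.05. With carfilzomib alone, where IL6 and IL11 rose too, 2 of the 21 rose and 1 fell (median -0.009). Over all genes 10.1% rose and 11.4% fell there. Of the 4 heat shock readouts, 3 rose and 1 fell with carfilzomib alone and likewise in the combination. What part either group has in the cytokine changes was not tested. In the combination, of 10 STAT3 pathway genes 1 rose, PIM1, a kinase induced by STAT3, from 56.8 ± 1.74 to 91.6 ± 4.77 CPM (0.69 ± 0.06). The 3 that fell were TYK2, IL4R and SOCS1 (median -0.04). Of the 9 receptor and antagonist genes tested, the antagonist IL1RN rose (1.38 ± 0.43) and IL1RAP (-1.02 ± 0.12) and SIGIRR (-0.45 ± 0.14) fell (median -0.07). IL1RN also rose with SHP1705 alone, from 0.539 ± 0.255 to 1.71 ± 0.260 CPM (1.64 ± 0.42, adjusted p = 0.0251). The other 6 tested, IL6R (0.83 ± 0.37), IL6ST (-0.13 ± 0.05), LIFR (-0.07 ± 0.08), IL11RA (-0.26 ± 0.26), IL1R1 (0.17 ± 0.10) and OSMR (0.02 ± 0.06), gave no call.

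Of 15 AP-1, C/EBP and ATF factors 4 rose and 6 fell (median -0.02), with ATF4 at -0.34 ± 0.05, CEBPG at -0.37 ± 0.06, JUND at -0.43 ± 0.12 and FOSL2 at 0.35 ± 0.05. Of 11 mRNA decay factors 1 rose, ZFP36 (0.48 ± 0.10), which binds AU-rich elements of cytokine mRNAs, and 3 fell (HNRNPD, KHSRP and TIA1; median -0.02). Of 17 further cytokines tested 2 rose and 2 fell (median 0.17). CCL26 went from 0.542 ± 0.165 to 8.41 ± 0.434 CPM (3.94 ± 0.25), and to 5.01 ± 1.10 with carfilzomib alone (3.19 ± 0.26), while IL24 (0.82 ± 0.28), INHBA (-0.59 ± 0.17) and CX3CL1 (-0.68 ± 0.21) made up the other calls. Of 8 interleukin-1 processing genes, CASP4 (1.31 ± 0.09) and IL1RN rose and GSDMD (-0.39 ± 0.07) fell (median -0.07). The stromal list summed to 20.0 to 26.5 CPM over the 12 libraries of this set, with POSTN at or under 0.0534 CPM.

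**Figure D4:**
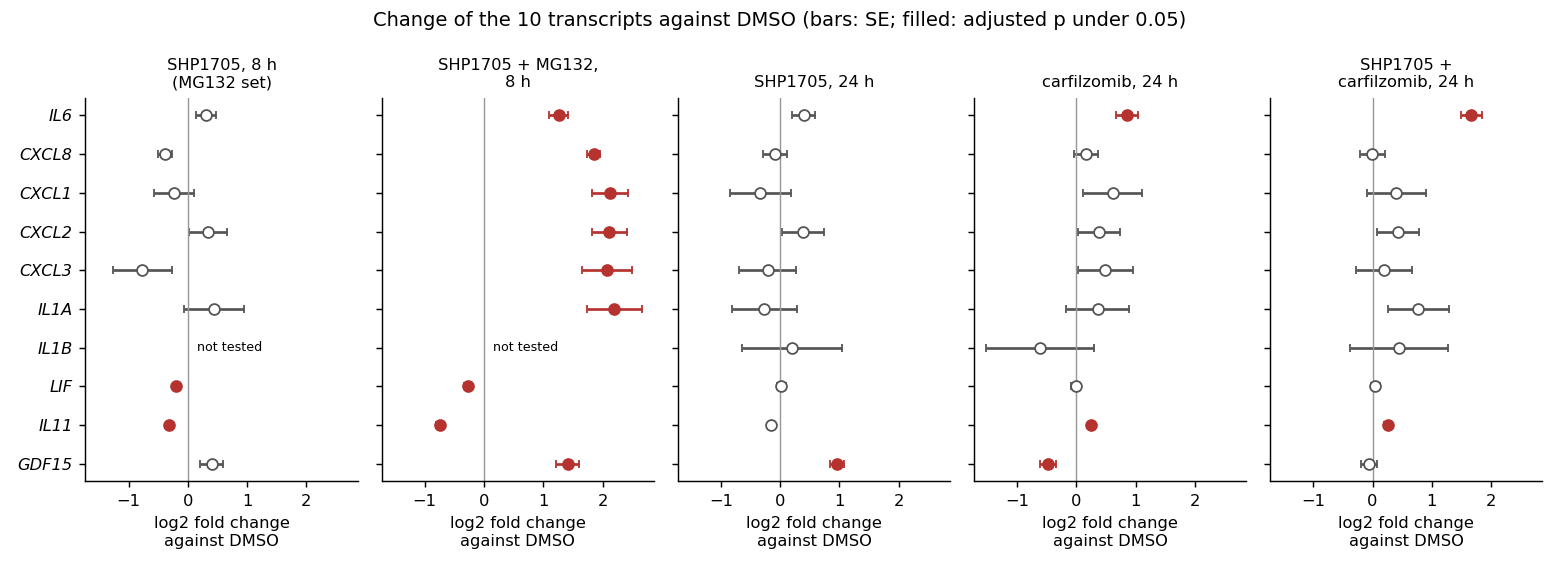
Log2 fold changes against DMSO of the 10 genes for 5 treatments of the MG132 set at 8 h and the carfilzomib set at 24 h; bars are SE and filled points have an edgeR adjusted p under 0.05. In the MG132 combination 7 genes lie right of 0 and LIF and IL11 left of it, while at 24 h the carfilzomib combination has 2 filled points, IL6 and IL11.

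In the carfilzomib set at 8 h the values are given by library as labelled. IL11 had 321, 238 and 224 CPM in the libraries labelled DMSO, 220, 386 and 429 in those labelled SHP1705, 395, 363 and 334 in carfilzomib and 391, 328 and 346 in the combination. The library labelled SHP1705 1 was thus at the level of DMSO 2 and 3 and apart from SHP1705 2 and 3. LIF showed the same split, with 39.5, 33.4 and 29.9 CPM in DMSO, 30.2, 51.2 and 53.6 in SHP1705, 51.0, 55.3 and 51.3 in carfilzomib and 55.7, 41.4 and 44.0 in the combination. CXCL8 ran opposite, with 16.2, 21.9 and 21.4 CPM in DMSO, 22.3, 7.0 and 9.44 in SHP1705, 8.12, 10.9 and 9.49 in carfilzomib and 9.32, 14.3 and 13.1 in the combination.

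IL6 was highest in the libraries labelled carfilzomib 2 (9.35 CPM), carfilzomib 3 (8.17) and combination 1 (8.00), and lay between 2.94 and 5.35 CPM in the other 9. Those where it was highest are the libraries of this set in which both HSPA1A and PER3 were low. GDF15 was highest in carfilzomib 2 (10.4 CPM) and combination 1 (10.3), and between 5.01 and 7.44 in the others. CXCL1 ranged from 1.02 CPM in carfilzomib 1 to 2.73 in combination 2, CXCL2 from 1.20 to 3.19, CXCL3 from 0.449 to 2.20, IL1A from 0.325 to 1.68 and IL1B from 0.168 to 1.24. The common biological coefficient of variation within the labelled groups was 0.172. It was 0.0455 in the set with MG132 and 0.0672 for carfilzomib after 24 h.

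**Figure D5:**
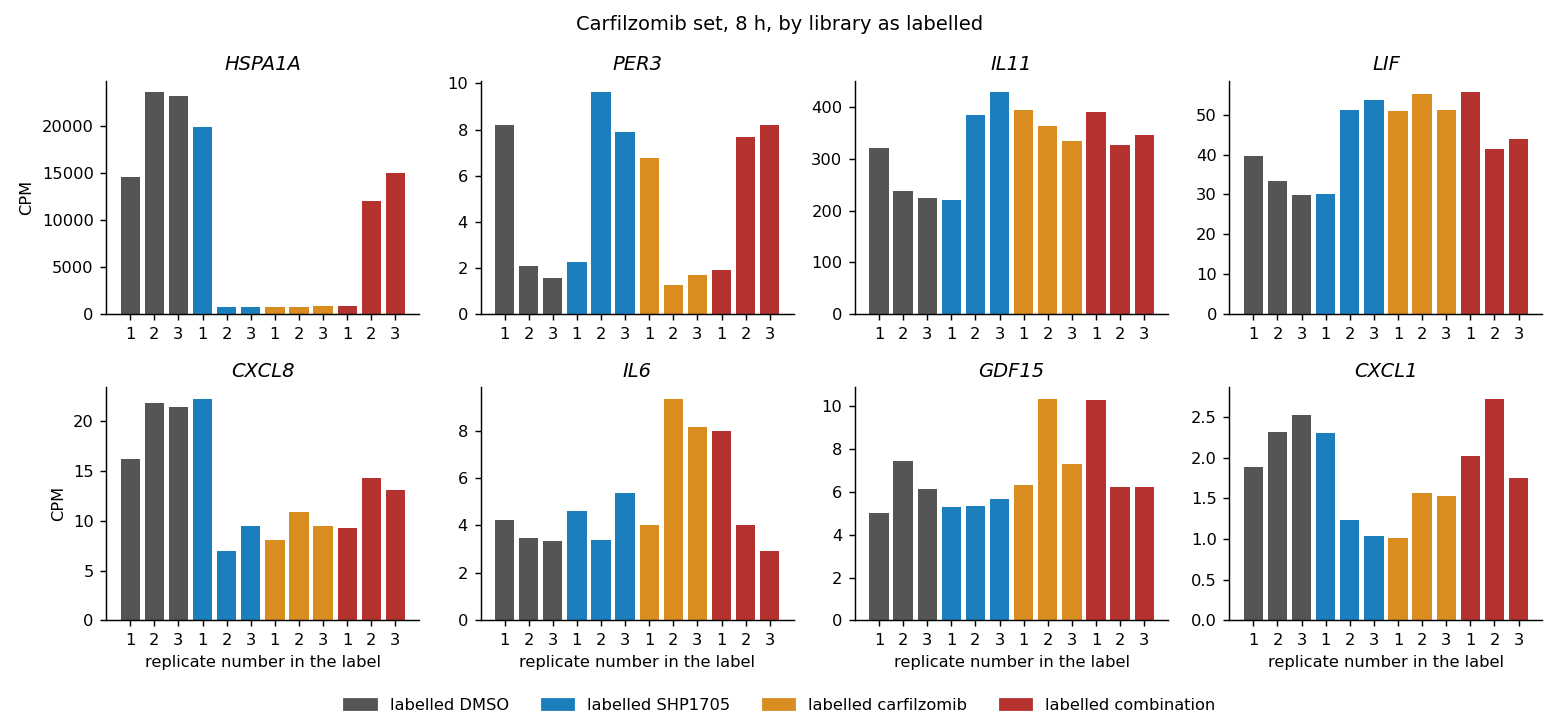
CPM of HSPA1A, PER3 and 6 of the 10 genes in each of the 12 libraries of the carfilzomib set at 8 h, coloured by label and numbered by replicate; bars start at 0. HSPA1A is at 14560 CPM or more in the libraries labelled DMSO and at 726 to 896 CPM in those labelled carfilzomib. Within the SHP1705 and combination labels, replicate 1 stands apart from 2 and 3 in HSPA1A. In PER3, replicate 1 stands apart from 2 and 3 within every label. Not every gene shows such a split, as in CXCL1 combination 1 lies between 2 and 3.

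With groups as labelled, carfilzomib against DMSO at 8 h called CXCL8 lower (-1.06 ± 0.34, adjusted p = 0.0456) and LIF higher (0.62 ± 0.20, adjusted p = 0.0436), 2 of 10 against 23% of 15577 genes. Both calls were lost on leaving out DMSO 2 or 3 or any carfilzomib library, and with the replicate block (adjusted p = 0.0937 and 0.0933). SHP1705 against DMSO, combination against DMSO, combination against carfilzomib and the interaction called none of the 10, each with 0% of all genes called and with 2244, 1454, 898 and 3951 genes at an unadjusted p under 0.05 in edgeR. Of the 10, 0, 2, 0 and 2 were at an unadjusted p under 0.05 there. DESeq2 called 0, 1, 1 and 315 genes in those 4 contrasts, and all 10 had an adjusted p there and were not called. Without the 4 libraries numbered 1, the 5 contrasts called 7, 6, 3, 4 and 9 of the 10 in the order SHP1705, carfilzomib, combination, combination against carfilzomib and interaction. Over all genes that fit called 49.3%, 53.8%, 18%, 37.9% and 56.3% in the same order. Since DMSO 2 and 3 carry the high HSPA1A level in that fit too, no direction is drawn from it.

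Differences between the carfilzomib sets at 24 h and 8 h rest on the same 8 h labels. They called 1 of the 10 for SHP1705 (background 2.94%), 4 for carfilzomib (40.1%) and 1 for the combination (20.4%).

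Across all 36 libraries, the genes whose log2(CPM + 1), centred within each table, ran closest to each member are given as a description with no test, since libraries share treatments and depth. The 8 h labels do not enter this measure. CXCL8 was closest to IFRD1 (Pearson r = 0.967), HSPD1P1 (0.960) and CCT8 (0.960), of which HSPD1P1 is a pseudogene of the chaperonin gene HSPD1 and may hold its reads. CXCL1 was closest to ZC3H12A (0.887), TRAF1 (0.881) and GTPBP4 (0.881), and CXCL2 to GRAMD2B (0.860), PAWR (0.848) and RALA (0.845). IL6 was closest to AOPEP (0.829), TM4SF1 (0.810) and TGIF1 (0.781). LIF was closest to G0S2 (0.932), MID1IP1 (0.929) and TRIP10 (0.905), IL11 to SLC27A4 (0.924), EHD1 (0.903) and LSM10 (0.896), and GDF15 to NEDD9 (0.809), KCNK6 (0.793) and TCEAL9 (0.793). CXCL3, IL1A and IL1B had means under 1 CPM and were left out.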

How the data were processed

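Polyadenylated RNA of MDA-MB-231 cells was sequenced. The authors deposited whole-number counts per gene in 3 tables, made with Trimmomatic, FastQC, HISAT2 and featureCounts on hg38 per the submitters' processing notes. Tool versions and the strand setting were not given. Each table was fitted alone in edgeR 4.0.16 (R 4.3.3) with filterByExpr, TMM factors, a mean for each of 4 groups of 3 libraries and the quasi-likelihood F-test, with Benjamini-Hochberg adjustment over all genes tested. SE is the log2 fold change divided by the root of F, and intervals are 95% from the t distribution. Log2 fold changes carry a prior count of 0.125. The difference between 24 h and 8 h came from 1 fit of all 36 libraries. Fits were also run on simulated counts in which a small share of genes was changed in the SHP1705 groups alone. That run does not bear on contrasts with a large share of genes called, nor on the 8 h carfilzomib labels. DESeq2 1.42.0, relative log expression factors, no filter, a replicate block, only the groups compared and single-library omissions were tried. Omitting the libraries rich in POSTN or numbered 1 was added after seeing the data. Of 18 same-numbered pairs per set, 1 (MG132), 4 (carfilzomib, 8 h) and 1 (carfilzomib, 24 h) had deviations correlated above 0.1. Of 36 differently numbered pairs per set, 3, 18 and 1 did in the same order. The numbers were not taken as pairing. In the carfilzomib set at 8 h the deviations are from means of labelled groups, so there they cannot show whether the numbers pair the libraries. Genes outside the 10 were named as up to 4 called members with the lowest p in each list, with all receptors and readouts, and by correlation. The 10 genes and the lists were chosen with earlier results of these data known.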

Additional observations from a re-analysis of the deposited data

Results flagged for a closer look

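With groups as labelled, the log2 fold changes of 5 genes against DMSO differed between the carfilzomib sets at 24 h and 8 h. A test of the difference itself called 6 gene and treatment pairs. All rest on the 8 h labels that HSPA1A and PER3 go against. Neither the differences nor their direction can therefore be tied to an established treatment or to time. Under SHP1705, the log2 fold change of GDF15 against DMSO was higher at 24 h by 1.17 ± 0.27 (SE, edgeR adjusted p = 0.0194). Under carfilzomib, that of CXCL8 was higher at 24 h by 1.24 ± 0.38 (adjusted p = 0.00951) and that of CXCL1 by 1.32 ± 0.53 (adjusted p = 0.0470). Those of LIF (-0.63 ± 0.19, adjusted p = 0.00869) and GDF15 (-0.84 ± 0.28, adjusted p = 0.0159) were lower. Under the combination, that of IL6 was higher at 24 h by 1.22 ± 0.39 (adjusted p = 0.0251). Without the 4 libraries numbered 1 at 8 h the values, in the same order, were 1.28, 1.27, 1.26, -0.75, -0.84 and 1.65, and CXCL1 no longer passed (adjusted p = 0.0639). The 8 h libraries left in that fit still carry the labels that HSPA1A and PER3 go against. It therefore cannot show whether the differences hold.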

How the results depend on the processing

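In the MG132 set, the 9 calls of the combination against DMSO and against MG132 were kept in every alternative run, though leaving out the 4 POSTN-rich libraries takes none from the contrast with DMSO, and no called value changed sign in any set. The counts of the 10 genes called moved as follows. With SHP1705 at 8 h in the MG132 set, 2 calls became 1 with relative log expression factors, 1 with the replicate block and 1 without the POSTN-rich libraries. With no filter on low counts, the carfilzomib set at 8 h gave 1 call for SHP1705, 5 for carfilzomib, 1 for the combination and 1 for the interaction, against 0, 2, 0 and 0. There, carfilzomib against DMSO gave 0 with the replicate block and 5 with only the groups compared. Without the libraries numbered 1 the 5 contrasts gave 7, 6, 3, 4 and 9. At 24 h, combination against carfilzomib gave 1 instead of 2 with no filter and with only the groups compared. Of the differences between times, SHP1705 (1 call) gave 2 with no filter, 0 with the replicate block, 0 with only the carfilzomib tables and 6 without the libraries numbered 1, and the combination (1 call) gave 2, 0 and 4 with the same settings other than the block. The cause of these shifts was not tested.

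Leaving out 1 library at a time gave 1 to 2 calls for SHP1705 in the MG132 set, 0 for MG132, 9 for both combination contrasts and 6 to 7 for the interaction. In the carfilzomib set at 8 h it gave 0 to 5, 0 to 2, 0, 0 and 0 to 5 calls in the order SHP1705, carfilzomib, combination, combination against carfilzomib and interaction. At 24 h it gave 1, 2 to 3, 2, 1 to 2 and 0, and for the differences between times 0 to 5, 2 to 5 and 0 to 1. The replicate block changed no other count beyond 1.5 times, and whether the numbers pair the libraries is not known.

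Over all genes, MG132 alone called 0, and 303 with no filter, 95 (of 1846 with an adjusted p) with DESeq2, 3 with the replicate block and 22 with only the groups compared. SHP1705 in the MG132 set called 1249, and 150 without the POSTN-rich libraries. At 24 h SHP1705 called 722, and 1171 with only the groups compared, while combination against carfilzomib called 1460 and then 913. The 24 h interaction called 78, and 364 with no filter and 360 (of 6281) with DESeq2. At 8 h with carfilzomib, where carfilzomib called 3587 and the other 4 contrasts 0, no filter gave 1050 for SHP1705, 688 for the combination, 502 for combination against carfilzomib and 2337 for the interaction. Carfilzomib there gave 0 with the replicate block and 6719 with only the groups compared, and the 5 contrasts gave 7711, 8421, 2822, 5927 and 8811 without the libraries numbered 1. The difference between times for SHP1705 called 512, and 1675 with no filter, 1252 with DESeq2, 83 with the replicate block, 33 with only the carfilzomib tables and 6617 without the libraries numbered 1. That for the combination called 3542, and 1946 with only the carfilzomib tables. Leaving out 1 library moved these counts too. SHP1705 in the MG132 set gave 619 (without DMSO 2) to 892, and MG132 alone 0 to 67 (without MG132 2). At 24 h SHP1705 gave 419 (without DMSO 1) to 687, combination against carfilzomib 869 (without combination 3) to 1852, and the interaction 20 (without SHP1705 2 or combination 1) to 477 (without carfilzomib 2). At 8 h carfilzomib gave 0 in 5 of 6 omissions and 3115 without DMSO 1, SHP1705 gave 3662 without SHP1705 1 and otherwise 0, combination against carfilzomib 2 without carfilzomib 3, and the interaction 5093 without SHP1705 1, 2837 without combination 1 and otherwise 0. The differences between times gave 76 (without 8 h SHP1705 2) to 4825 (without 8 h SHP1705 1) for SHP1705, and 2126 (without 8 h combination 1) to 4225 for the combination. Depth limits CXCL1, CXCL2, CXCL3, IL1A and IL1B, whose lowest DMSO libraries held 0 to 11 counts over the 3 sets.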
